A study of Homo sapiens with 15 samples.

Results

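Breast epithelial cells of the MCF10 line that had received both guides against NF1 were compared with the unmodified parental cells of the same line. Each group had 3 libraries, which the labels call biological replicates, so 6 of the 15 libraries of the study entered the comparison. The other libraries came from cells with an empty vector, with guide 1 alone and with guide 2 alone, 3 of each. All cells grew in the same DMEM/F12 medium with horse serum, EGF, hydrocortisone, cholera toxin and insulin, and none had a further treatment. MCF10 is a non-tumorigenic human mammary line. The labels do not say how the guides were delivered, whether an edited line was 1 clone or a pool, or whether replicates were separate cultures, so p-values measure the spread between these libraries, which may be technical. Parental cells had no vector, so vector and guides cannot be told apart in this comparison, and values of the empty vector cells are given beside it. Of 60721 genes in the count table, 17457 had enough reads to be tested and make up the comparison.

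The NF1 product, neurofibromin, speeds GTP hydrolysis by RAS and so returns it from its GTP-bound, active form to its GDP-bound form. Active RAS signals through RAF, MEK and ERK to transcription factors, and ERK also switches on genes whose products restrain the pathway, among them the Sprouty proteins and the dual-specificity phosphatases. In mammary epithelium this pathway lies downstream of EGF receptors.

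The libraries held between 46129559 and 78976917 counts. Levels are given in CPM, which are counts scaled to the library total, and 3 counts corresponded to 0.038 to 0.065 CPM depending on the library. Markers of basal epithelium were present in both groups. Of the markers of other cell types, CD3E and CDH5 had no count in any of the 6 libraries, PTPRC reached at most 0.0536 CPM and VWF at most 0.0894 CPM. Others were expressed, and KDR, PECAM1, TEK and CD14 passed the filter. The summed level of the 7 immune markers was 3.36 to 3.98 CPM in parental cells and 6.28 to 6.72 CPM in cells with both guides, most of it CD14. The 7 endothelial markers summed to 4.77 to 12.3 and 6.40 to 7.34 CPM, most of it KDR and PECAM1. The 8 fibroblast markers summed to 108 to 139 and 232 to 257 CPM, most of it decorin, with THY1 at or below 0.0357 CPM and COL3A1 at or below 0.0535 CPM throughout.

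The parental libraries differed from each other more than the edited ones did. Pearson correlations of log2 CPM across genes were 0.979 to 0.988 among parental libraries and 0.994 for each pair of libraries with both guides. Between 49.2% and 65.8% of genes differed beyond sampling noise in pairs of parental libraries, against 24.6% to 40.2% in pairs with both guides. Parental replicate 1 differed from replicates 2 and 3 in 65.8% and 55.6% of genes, and replicates 2 and 3 from each other in 49.2%. On the first principal component of the 6 libraries (38.1% of the variance), replicate 1 was at -56.33 and the others between -19.95 and 22.39. Parental replicate 2 stood apart in epithelial genes. CDH1, which encodes E-cadherin, was at 42.9, 1.79 and 37.8 CPM in parental replicates 1, 2 and 3, and at 23.4, 17.3 and 14.8 CPM with both guides. TP63, the master factor of basal epithelium, was at 37.4, 0.815 and 19.9 CPM against 10.99, 9.97 and 7.83 CPM. Counts of genes are therefore also given without that library, and without guide 2 replicate 2, a library outside this comparison whose correlation with its own replicates went down to 0.947.

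NF1 RNA was lower in every library with both guides. The parental libraries had 158.7, 140.6 and 153.1 CPM of NF1 (chr17:31094927-31382116, plus strand, GRCh38), and the libraries with both guides had 28.9, 29.4 and 26.0 CPM. The groups were far apart, and the level with both guides was 18.6% of the parental level (28.1 ± 1.81 against 150.8 ± 9.30 CPM, SD, n = 3 each). The log2 fold change was -2.41 with a standard error of 0.092 (edgeR quasi-likelihood test, adjusted p = 2.25e-08). An exact two-sided permutation test over the 6 libraries gave p = 0.1, the smallest that its 20 arrangements allow. Empty vector cells had 123.7 ± 8.87 CPM, guide 1 cells 47.4 ± 3.87 CPM and guide 2 cells 29.4 ± 2.27 CPM (SD, n = 3 each). The level with both guides was below that with guide 1 alone, with a log2 fold change of -0.77 and an adjusted p of 0.0041. Against guide 2 alone the log2 fold change was -0.07, with a standard error of 0.088 and an adjusted p of 0.97. RNA level does not report how much protein was left.

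**Figure D1:**
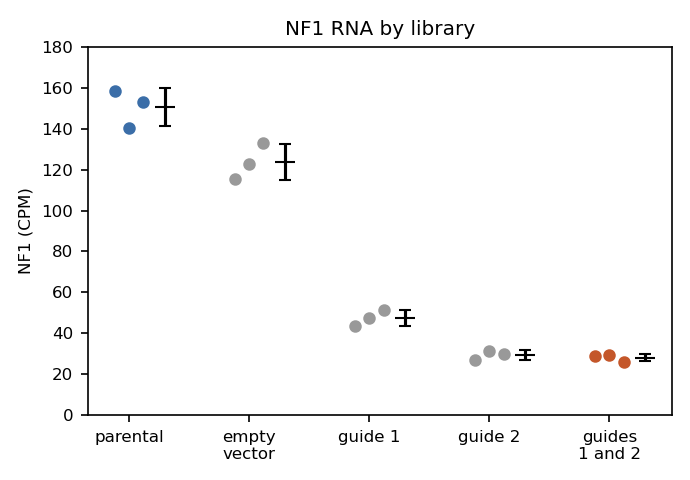
NF1 level in CPM (vertical axis, from 0) in each of the 15 libraries, with the mean and SD of the 3 libraries of each group. The 3 libraries with both guides sit between 26.0 and 29.4 CPM, next to those with guide 2 alone and below those with guide 1 alone and both controls.

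At an adjusted p under 0.05, 34 of 17457 genes differed between cells with both guides and parental cells, which is 0.195% of those tested. The 19 genes that rose are 0.109% and the 15 that fell are 0.0859% of the tested genes. The median log2 fold change was 1.49 for the called genes that rose and -1.65 for those that fell, against -0.02 over all tested genes, of which 46.4% were higher with both guides. In all 34 called genes the 3 libraries with both guides lay on one side of the 3 parental libraries, which held for 4041 tested genes in all (23.1%). The unadjusted p was under 0.05 for 1742 genes, where 5% of the tested genes would be 873. Called genes were often weakly expressed, and 14 of the 34 had an average below 1 on the log2 CPM scale.

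The number of called genes moved with the libraries in the fit. It rose to 467 of 17849 genes (2.62%), 277 higher and 190 lower, when guide 2 replicate 2 was left out of the shared estimate of spread, and all 34 genes were among them. It fell to 17 without parental replicate 2, all of them among the 34. Leaving out parental replicate 1 gave 41 genes and leaving out parental replicate 3 gave 28. Without replicate 1, 2 or 3 of the cells with both guides it was 9, 11 and 4 genes, all among the 34. NF1, PRKAR2B, BMP6 and COL6A2 kept their call whichever of the 6 libraries was left out, and the other 30 lost it in at least 1 of those fits. CHRNA9, TLR4, C9orf64 and IGSF9B kept it in only 1 of them. CDCA4, PDE11A, CDH4, MAPK13, SMC1B, ZNF737, PLXNA2, FAM83G and PDE3A lost it in all 6.

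**Figure D2:**
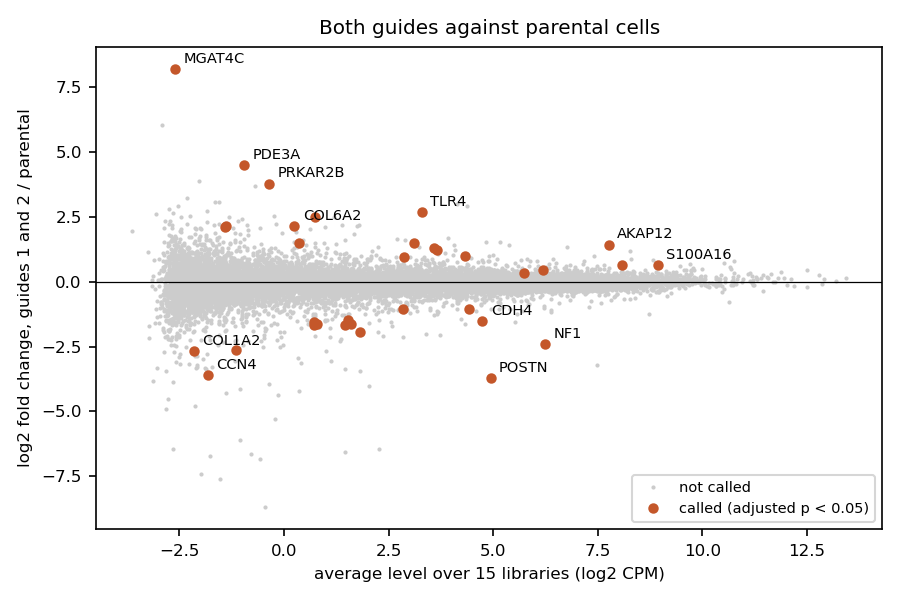
Each point is 1 of the 17457 tested genes, with its average level over the 15 libraries (horizontal axis, log2 CPM) and its log2 fold change between cells with both guides and parental cells (vertical axis). The 34 called genes are coloured. Many genes with larger changes at low levels are not called, and the position of MGAT4C, which had no count in parental cells, depends on the prior count of the fit.

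For 26 of the 34 called genes the RefSeq table of promoters held a sequence. The stretch from 250 to 101 bases before the start is shown for 3 of them, PRKAR2B and AKAP12, which rose, and POSTN, which fell. They were chosen because their windows hold a match to a motif of factors downstream of ERK. The capitals mark the ETS core motif CCGGAA, read here on the opposite strand, or the AP-1 motif TGANTCA. The windows are chr7:107044455-107044604 (plus strand) for PRKAR2B, chr6:151239717-151239866 (plus strand) for AKAP12 and chr13:37598869-37599018 (minus strand) for POSTN, all on GRCh38.p14, and each is written 5′ to 3′ on the gene's strand.
PRKAR2B: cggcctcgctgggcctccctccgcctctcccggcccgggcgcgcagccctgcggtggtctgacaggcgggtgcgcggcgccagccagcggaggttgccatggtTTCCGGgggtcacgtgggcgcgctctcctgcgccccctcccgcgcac
AKAP12: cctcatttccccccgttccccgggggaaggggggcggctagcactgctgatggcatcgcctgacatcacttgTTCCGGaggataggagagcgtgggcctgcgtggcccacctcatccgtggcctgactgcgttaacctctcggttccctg
POSTN: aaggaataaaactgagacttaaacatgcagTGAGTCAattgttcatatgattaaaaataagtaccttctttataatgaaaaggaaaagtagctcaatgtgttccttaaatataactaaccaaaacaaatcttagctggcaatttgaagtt
The PRKAR2B window is 78.7% and the AKAP12 window 64.7% G and C, while the POSTN window is 28.7%. Searching both strands, 4 of the 26 windows held the ETS core (15.4%), against 10.5% of 11761 windows of tested genes, the others being DENND2D and RHOF. AP-1 matches were in 2 of the 26 (7.7%, POSTN and PDE3A), against 2.6%. The cyclic AMP response element TGACGTCA was in 1 of the 26 (3.8%, NF1), against 0.8%, and the E-box CAGGTG bound by SNAIL and ZEB factors was in 4 of the 26 (15.4%), against 11.2%. A match is a string of letters and not a site of binding.

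PRKAR2B, AKAP12, PDE11A and PDE3A are described together because their products bind protein kinase A or cyclic nucleotides. They were put together after the calls were known, and no list of such genes was tested. PRKAR2B, a regulatory subunit of protein kinase A, was at 0.105, 0.0783 and 0.217 CPM in parental cells and at 1.91, 2.07 and 1.43 CPM with both guides. It rose by 3.79 ± 0.405 on the log2 scale (fold change ± standard error, adjusted p = 0.00343), on 21 parental counts and 284 counts with both guides. AKAP12, a scaffold that anchors protein kinase A, was far more abundant, at 117, 106 and 137 CPM against 292, 324 and 347 CPM. Its groups did not overlap, and it rose by 1.43 ± 0.185 (adjusted p = 0.00921, and 0.0633 without replicate 3 of both guides). PDE11A, a phosphodiesterase that degrades cyclic nucleotides, had 0.0877, 0.141 and 0.0866 CPM in parental cells and 0.499, 0.428 and 0.500 CPM with both guides, a log2 fold change of 2.14 ± 0.347 (adjusted p = 0.0221). PDE3A, another phosphodiesterase, had 1 count over the parental libraries and 28 with both guides, a ratio of 29.6 with an exact 95% interval from 4.89 to 1210 that covers counting error only (adjusted p = 0.0445). PDE11A and PDE3A each lost their call whichever of the 6 libraries was left out. Both are near the floor of detection in parental cells.

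Of these 4 genes, PRKAR2B and PDE3A differed by test between both guides and some of the lines other than parental, while AKAP12 and PDE11A did not. The contrasts of each line with parental cells share the parental libraries and are given side by side. PRKAR2B had log2 fold changes of 2.88 with guide 1, 1.65 with guide 2 and 1.92 with the empty vector. Both guides exceeded guide 2 alone (2.14, adjusted p = 0.0364) and the empty vector (1.87, adjusted p = 0.0279). AKAP12 stood at 0.80, 0.66 and 1.11 in guide 1, guide 2 and empty vector cells. Both guides differed from these by 0.63 (adjusted p = 0.208), 0.77 (adjusted p = 0.175) and 0.32 (adjusted p = 0.471). PDE11A stood at 2.08, 1.63 and 1.80 in the same lines. Both guides differed from these by 0.07 (adjusted p = 0.932), 0.51 (adjusted p = 0.957) and 0.34 (adjusted p = 0.708). PDE3A had log2 fold changes of 6.84, 5.70 and 6.73 in guide 1, guide 2 and empty vector cells. Cells with both guides were below the empty vector (log2 fold change -2.24, adjusted p = 0.0305) and guide 1 (-2.35, adjusted p = 0.0423), and their difference from guide 2 did not pass the test (-1.21, adjusted p = 0.67).

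Among secreted ligands and receptors, BMP6 and TLR4 rose and SSTR1 fell. BMP6, a ligand of the TGF-β superfamily, was at 0.614, 0.313 and 0.498 CPM in parental cells and at 2.56, 2.41 and 3.00 CPM with both guides, a log2 fold change of 2.49 ± 0.295 (adjusted p = 0.00718). TLR4, the receptor for bacterial lipopolysaccharide, was at 2.68, 1.80 and 1.86 CPM against 14.2, 13.6 and 12.8 CPM, a log2 fold change of 2.68 ± 0.406 (adjusted p = 0.0151). The lowest TLR4 value with both guides was several times the highest parental one, and its adjusted p reached 0.121 without parental replicate 2. SSTR1, a somatostatin receptor, was at 0.649, 1.14 and 0.931 CPM against 0.108, 0.232 and 0.0894 CPM, a log2 fold change of -2.63 ± 0.362 (adjusted p = 0.00948). CHRNA9, a nicotinic acetylcholine receptor subunit, rose by 1.49 ± 0.220 (13.8 ± 0.881 against 4.96 ± 1.88 CPM, SD, n = 3 each, adjusted p = 0.0125). PLXNA2, a semaphorin receptor, rose from 195, 217 and 208 CPM to 309, 317 and 327 CPM, by 0.63 ± 0.111 (adjusted p = 0.0426). Its change was small, and it was 1 of the 6 called genes with a log2 fold change under 1 in size.

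Empty vector cells were also above parental cells in BMP6, TLR4, CHRNA9 and PLXNA2, and below them in SSTR1. For empty vector against parental cells, the log2 fold change was 0.50 in PLXNA2 (adjusted p = 0.0266) and -1.70 in SSTR1 (adjusted p = 0.0164). BMP6 had 1.53 ± 0.0867 CPM in empty vector cells, 1.56 ± 0.334 CPM with guide 1 and 1.93 ± 0.589 CPM with guide 2 (SD, n = 3 each), and all 3 libraries with both guides were above those of that control, with a log2 difference of 0.77 that did not pass the test (adjusted p = 0.204). TLR4 had 10.0 ± 0.640 CPM with the empty vector, 10.6 ± 1.68 CPM with guide 1 and 12.7 ± 7.51 CPM with guide 2 (SD, n = 3 each), and the difference of both guides from the empty vector was 0.41 (adjusted p = 0.719). CHRNA9 had 12.6 ± 1.36 CPM with the empty vector but 5.87 ± 1.23 and 5.33 ± 0.393 CPM with guide 1 and guide 2 (SD, n = 3 each). Both guides exceeded guide 1 by 1.22 (adjusted p = 0.0409) and guide 2 by 1.37 (adjusted p = 0.0289) in CHRNA9, and the difference from the empty vector was 0.11 (adjusted p = 0.9).

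Intracellular signalling genes moved in both directions. MAPK13, which encodes the p38δ kinase, was at 3.67, 3.26 and 3.96 CPM in parental cells and at 6.66, 6.94 and 7.51 CPM with both guides, a log2 fold change of 0.97 ± 0.162 (adjusted p = 0.0287). It was higher still with the empty vector (12.8 ± 3.197 CPM, SD, n = 3), and both guides were below that control by a log2 fold change of -0.89 (adjusted p = 0.0224). RHOF, a small GTPase, rose by 1.23 ± 0.180 (adjusted p = 0.0125). With the empty vector against parental cells RHOF rose by 1.63 (adjusted p = 0.00131). DENND2D, an exchange factor for RAB GTPases, changed by -1.61 ± 0.213 (adjusted p = 0.00921). DENND2D had 4.12 ± 0.513 CPM in parental cells, 3.66 ± 0.280 with the empty vector and 1.34 ± 0.0579 with both guides (SD, n = 3 each), and both guides were also below the empty vector (-1.47, adjusted p = 0.00851). ARL10, an ARF-like GTPase, changed by -1.47 ± 0.237 (adjusted p = 0.0221). It was at 5.06 ± 1.52 CPM with guide 2 against 4.28 ± 1.03 CPM in parental cells and 1.54 ± 0.150 CPM with both guides (SD, n = 3 each). It was also low with the empty vector (1.22 ± 0.159 CPM) and with guide 1 (2.09 ± 0.134 CPM, SD, n = 3 each). Both guides against the empty vector gave 0.31 for ARL10 (adjusted p = 0.644).

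Genes of the extracellular matrix changed in opposite directions. COL6A2, the α2 chain of collagen VI, was at 0.702, 0.548 and 0.606 CPM in parental cells and at 3.10, 2.55 and 2.56 CPM with both guides. The groups were well separated, and the log2 fold change was 2.15 ± 0.266 (adjusted p = 0.0091). POSTN, which encodes the matrix protein periostin, was at 63.1, 77.8 and 145.9 CPM in parental cells and at 7.74, 6.77 and 6.99 CPM with both guides. The parental values spread widely but all lay above the edited ones, and POSTN fell by 3.73 on the log2 scale with a standard error of 0.524 (adjusted p = 0.0109, and up to 0.0938 with 1 library left out, replicate 3 of both guides). COL1A2, the α2 chain of collagen I, was at 0.544, 0.548 and 0.498 CPM against 0.0434, 0.107 and 0.0894 CPM, with 89 counts against 13 and a log2 fold change of -2.66 ± 0.386 (adjusted p = 0.0125). COL1A2 was called in 2 of the 6 fits with 1 library left out, with an adjusted p of 0.0547 without parental replicate 2 and up to 0.0938 without replicate 3 of both guides. CCN4, a secreted matricellular protein, had 128 counts in parental cells and 10 with both guides, a log2 fold change of -3.59 ± 0.540 (adjusted p = 0.0149).

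COL6A2 was the called matrix gene whose change set cells with both guides apart from every other line. Its level was 0.703 ± 0.0516 CPM with the empty vector, 0.774 ± 0.125 CPM with guide 1 and 0.975 ± 0.363 CPM with guide 2 (SD, n = 3 each). On the log2 scale, both guides exceeded guide 1 by 1.81 (adjusted p = 0.0145), guide 2 by 1.47 (adjusted p = 0.0493) and the empty vector by 1.93 (adjusted p = 0.00566). The mean of POSTN was below the parental mean in each of the other lines. It had 22.8 ± 10.97 CPM with the empty vector, 7.33 ± 1.30 CPM with guide 1 and 21.6 ± 13.0 CPM with guide 2 (SD, n = 3 each), and both guides against the empty vector gave -1.70 (adjusted p = 0.122). COL1A2 had 0.115 ± 0.0134 CPM and CCN4 0.121 ± 0.0412 CPM with the empty vector (SD, n = 3 each), and neither was called between both guides and that control (adjusted p = 0.741 and 0.574).

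The whole list of 16 matrix genes had 1 member that rose and 1 that fell, COL6A2 and POSTN, with a median log2 fold change of -0.19 against -0.02 over all tested genes. The other chains of collagen VI, which assembles from products of COL6A1, COL6A2 and COL6A3, had values in the same direction without passing the test. COL6A1 was at 8.96, 15.1 and 8.64 CPM against 25.2, 24.8 and 27.0 CPM, a log2 fold change of 1.24 ± 0.386 (adjusted p = 0.237). COL6A3 was at 102, 134 and 111 CPM against 218, 225 and 236 CPM, a log2 fold change of 0.98 ± 0.331 (adjusted p = 0.299). Groups did not overlap in either gene, as in 7 of the 16 matrix genes, against 23.1% of all tested genes. COL5A1 was at 0.228, 0.204 and 0.195 CPM against 0.0217, 0 and 0.0179 CPM (adjusted p = 0.0623), and COL12A1 at 303, 388 and 305 CPM against 222, 219 and 193 CPM (adjusted p = 0.181). The gene lists were chosen with earlier results of these data known. List counts without guide 2 replicate 2, here and below, were added after the data were seen, so they describe a list and do not test it. Without guide 2 replicate 2 in the fit, 6 of the 16 were called (37.5%, against 2.62% of all tested genes). These were COL6A1 (1.24, adjusted p = 0.00605), COL6A2 (2.15, adjusted p = 5.65e-05) and COL6A3 (0.98, adjusted p = 0.00239), which rose, and COL5A1 (-3.82, adjusted p = 0.0197), COL12A1 (-0.64, adjusted p = 0.0478) and POSTN (-3.73, adjusted p = 0.000147), which fell. Without parental replicate 2, COL6A2 and POSTN were called.

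**Figure D3:**
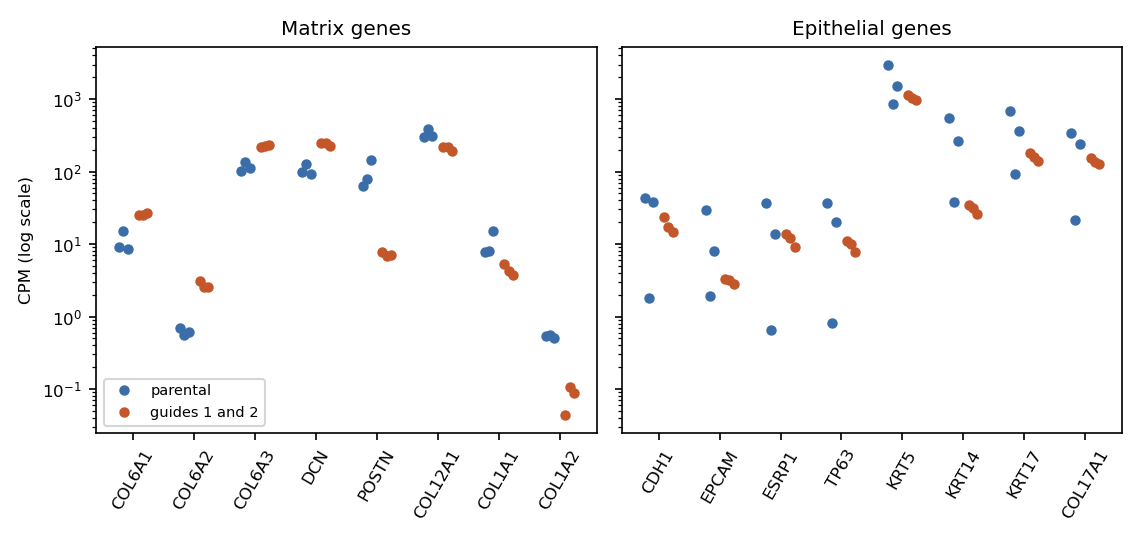
CPM (log axis) of 8 matrix and 8 epithelial genes in the 3 parental libraries and the 3 libraries with both guides, 1 point per library. The collagen VI genes and POSTN separate by group, while 6 of the 8 epithelial genes spread over more than 10-fold among parental libraries. Apart from KRT14, the edited libraries lie inside the parental range of the epithelial genes. COL6A1, COL6A3, DCN, COL12A1, COL1A1 and the epithelial genes were not called.

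Of 4 called genes for adhesion or cytoskeletal proteins, grouped after the calls were known, CDH4, PARVB and SYNM fell and IGSF9B rose. CDH4, or R-cadherin, was at 49.8, 35.4 and 43.0 CPM in parental cells and at 13.8, 15.6 and 15.2 CPM with both guides, a log2 fold change of -1.52 ± 0.251 (adjusted p = 0.0265). It stood at 21.8 ± 1.10 CPM with the empty vector (SD, n = 3), and lost its call whichever library was left out (adjusted p up to 0.17). PARVB, a focal adhesion protein that binds integrin-linked kinase, was at 29.9, 25.2 and 25.7 CPM against 11.9, 12.8 and 14.0 CPM, a log2 fold change of -1.06 ± 0.155 (adjusted p = 0.0125). SYNM, which encodes the intermediate filament protein synemin, was at 1.72, 2.77 and 1.84 CPM against 0.542, 0.784 and 0.697 CPM, a log2 fold change of -1.63 ± 0.215 (adjusted p = 0.00921). SYNM was also lower than in empty vector cells, where it had 3.18 ± 0.242 CPM (SD, n = 3, log2 fold change -2.25, adjusted p = 0.00106). IGSF9B, an adhesion protein of the immunoglobulin superfamily, rose by 0.98 ± 0.157 (adjusted p = 0.0221).

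The other 12 called genes belong to no common group. S100A16, a calcium-binding protein, was the most abundant called gene to rise, from 387, 348 and 395 CPM to 570, 568 and 626 CPM (0.65 ± 0.0881, adjusted p = 0.00921). HSD17B1, which converts estrone to estradiol, rose from 6.51, 6.34 and 6.11 CPM to 14.8, 14.9 and 16.8 CPM (1.30 ± 0.176, adjusted p = 0.00921). Empty vector cells had 584.7 ± 55.7 CPM of S100A16 and 15.2 ± 0.663 CPM of HSD17B1 (SD, n = 3 each). The differences of both guides from that control were -0.02 (adjusted p = 0.976) and 0.01 (adjusted p = 0.997). MGAT4C, a glycosyltransferase gene, had no count in parental cells and 103 with both guides, which is at least 11.7-fold higher taking 3 counts per library as the floor (adjusted p = 0.00921). SMC1B, a meiotic cohesin subunit, rose by 2.13 ± 0.368 (adjusted p = 0.0369), CDCA4 by 0.47 ± 0.0735 (adjusted p = 0.0198) and FAM83G by 0.34 ± 0.0595 (adjusted p = 0.0438). UAP1L1 (-1.56, adjusted p = 0.0125), NRIP3 (-1.65, adjusted p = 0.0157), the zinc finger genes ZNF780B (-1.04, adjusted p = 0.0151) and ZNF737 (-1.66, adjusted p = 0.0426), and the pseudogene GGT4P (-1.94, adjusted p = 0.00921) fell. With the empty vector against parental cells, log2 fold changes were -1.68 in NRIP3 (adjusted p = 0.00528), -1.51 in GGT4P (0.00866) and 0.45 in FAM83G (0.00319). MGAT4C, SMC1B, CDCA4, UAP1L1, ZNF780B and ZNF737 were not called there. Zinc finger genes and GGT4P have close copies, and reads could have been split between them.

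C9orf64 was far lower in the lines with 1 guide than in cells with both guides and in both controls. It was at 1.16, 0.815 and 0.866 CPM in parental cells and at 2.39, 2.59 and 3.06 CPM with both guides (log2 fold change 1.51 ± 0.240, adjusted p = 0.0208). Empty vector cells had 2.55 ± 0.312 CPM (SD, n = 3). The log2 difference of both guides from the empty vector was 0.05 (adjusted p = 0.97). Guide 1 cells had 0.0192, 0.0380 and 0.0158 CPM and guide 2 cells 0.127, 0.0906 and 0.0578 CPM, log2 fold changes of -5.08 and -3.34 against parental cells. Both guides exceeded guide 1 alone by 6.59 (adjusted p = 7.67e-07) and guide 2 alone by 4.85 (adjusted p = 1.05e-05).

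Over the 34 called genes, 10 also differed between both guides and guide 1 alone, where 48 genes differed in all (0.275%), and 11 between both guides and guide 2 alone, where 26 did (0.149%). The genes COL6A2, C9orf64, CHRNA9, MGAT4C and ZNF737 differed from both. Against the empty vector 168 genes differed (0.962%), and 11 of the 34 were among them. For 9 of these 11 the direction was that against parental cells, and for MAPK13 and PDE3A it was the opposite. Empty vector against parental cells, which shares the parental libraries, had 762 called genes (4.37%), 495 higher and 267 lower. The 3 comparisons of both guides with other lines share the libraries with both guides, so the counts do not add support to one another.

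**Figure D4:**
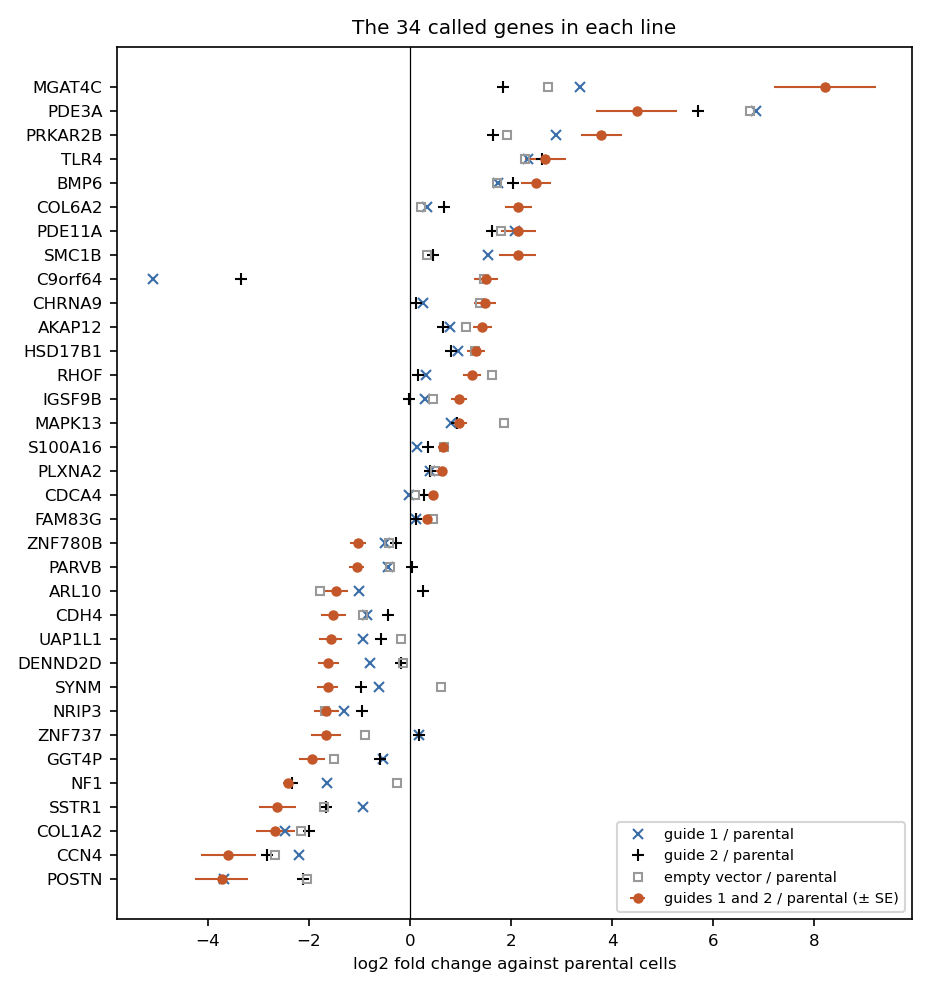
Log2 fold change against parental cells (horizontal axis) of each of the 34 called genes in cells with both guides (filled points, bars are ± 1 standard error), guide 1, guide 2 and the empty vector. All contrasts share the parental libraries. The COL6A2 and C9orf64 points for both guides stand apart from those of the single guides, and the fold change of MGAT4C against a group with no count depends on the prior count.

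Genes just outside the threshold (adjusted p = 0.051 to 0.0554, against 0.0445 for PDE3A just inside) were VPS25, MAP10, IGSF3P1, CDO1, NRG4 and NRROS. MAP10 was at 0.526, 0.407 and 0.563 CPM in parental cells and at 0.0650, 0.0357 and 0.0536 CPM with both guides. CDO1, or cysteine dioxygenase, was at 1.18, 0.658 and 0.606 CPM against 1.76, 2.25 and 2.09 CPM. NRG4, a ligand of the EGF family, was at 0.228, 0.172 and 0.476 CPM against 1.19, 1.34 and 0.912 CPM. None of the 3 had overlapping groups.

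None of the 10 transcripts taken as output of ERK signalling passed the test, though 8 were higher with both guides and their median log2 fold change was 0.24 against -0.02 over all tested genes. By unadjusted p, 3 were under 0.05. SPRY4, a Sprouty feedback inhibitor, was at 59.3, 61.6 and 61.4 CPM in parental cells and at 98.5, 96.6 and 105 CPM with both guides, a log2 fold change of 0.73 ± 0.185 (adjusted p = 0.142). DUSP4, a phosphatase of ERK, was at 177, 115 and 145 CPM against 201, 199 and 205 CPM (0.48 ± 0.196, adjusted p = 0.427). The receptor gene EPHA2 was at 178, 214 and 186 CPM against 226, 231 and 245 CPM (0.29 ± 0.114, adjusted p = 0.405). PHLDA1 (0.19), DUSP6 (0.61) and CCND1, or cyclin D1 (0.47), also had groups that did not overlap. This held for 6 of the 10, against 23.1% of all tested genes. SPRY2 (-0.02), ETV4 (-0.03), ETV5 (0.09) and EPHA4 (0.01) overlapped. Such separation was not particular to this list. It held for 5 of 10 proliferation genes, 5 of 11 p53 targets and 6 of 14 glycolysis genes, but for 1 of 10 mesenchymal genes. Without guide 2 replicate 2 in the fit, SPRY4 (0.73, adjusted p = 0.00207) and CCND1 (0.47, adjusted p = 0.0487) were called, 2 of 10 against 2.62% of all tested genes, and without parental replicate 2 none was, the median then being 0.35. The median over the list was 0.26 with guide 1, 0.24 with guide 2 and 0.06 with the empty vector, all against the same parental libraries.

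NF1 was the one gene of its own family and of the core pathway to pass the test. Of 10 tested RAS GTPase-activating proteins and SPRED adaptors, NF1 was the one called, and the list's median was -0.11. RASA1, a further RAS GTPase-activating protein, was at 69.6, 72.9 and 81.8 CPM against 67.4, 66.4 and 60.9 CPM (adjusted p = 0.472). The 20 genes from RAS to ERK had a median of -0.02 and none was called. MAP2K1, which encodes MEK1, was at 138, 141 and 155 CPM against 173, 178 and 182 CPM (0.30 ± 0.0821, adjusted p = 0.17), and the adaptor SHC1 at 498, 668 and 606 CPM against 785, 799 and 839 CPM (0.46 ± 0.203, adjusted p = 0.469). Without guide 2 replicate 2, MAP2K1 (adjusted p = 0.0421) and SHC1 (adjusted p = 0.0441) were called. None of the 12 tested genes around NF1 on 17q11 was called, with a median of -0.08, and the lowest adjusted p there was 0.54.

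Of 14 immediate early factors, which serum and growth factors induce within minutes, none was called. The median was 0.20 and 10 were higher. Groups did not overlap in 6 of the 14, all 6 higher with both guides, against 23.1% of all tested genes. EGR1 was at 49.3, 36.6 and 40.2 CPM in parental cells and at 113, 101 and 105 CPM with both guides, a log2 fold change of 1.34 ± 0.561 (adjusted p = 0.448). EGR1 stood at 1.95 with guide 1, 1.73 with guide 2 and 1.26 with the empty vector. FOS was at 5.46, 2.08 and 2.90 CPM against 5.90, 5.12 and 4.004 CPM, and the groups overlapped. Among 11 tested EGF receptors and ligands none was called and the median was -0.20. The ligand gene NRG1 was at 41.7, 40.8 and 36.4 CPM against 24.1, 21.2 and 22.8 CPM (-0.80 ± 0.345, adjusted p = 0.457), and AREG at 333, 241 and 271 CPM against 357, 366 and 408 CPM (0.43 ± 0.275, adjusted p = 0.66). Without guide 2 replicate 2, both were called (adjusted p = 0.00905 and 0.0411). EGFR was at 724, 419 and 514 CPM against 449, 438 and 404 CPM, and the groups overlapped.

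No epithelial junction gene or basal marker passed the test, and both lists had medians below that of all tested genes. The 11 tested junction genes had a median of -0.54 and 1 of them, CLDN4, had groups that did not overlap, against 23.1% of all tested genes. EPCAM, an epithelial adhesion molecule, was at 29.1, 1.93 and 8.14 CPM in parental cells and at 3.32, 3.21 and 2.84 CPM with both guides (-2.06 ± 1.19, adjusted p = 0.612). The 11 basal markers had a median of -0.50, and groups did not overlap in 2, KRT14 and LAMB3. KRT14, a basal keratin, was at 545, 37.8 and 265 CPM against 34.6, 31.0 and 26.0 CPM, without overlap (-3.20 ± 1.32, adjusted p = 0.44). LAMB3, a chain of laminin 332, was at 606, 468 and 746 CPM against 868, 850 and 904 CPM (0.54 ± 0.185, adjusted p = 0.312). Without guide 2 replicate 2, KRT14 was the 1 basal marker called (adjusted p = 0.0241). Without parental replicate 2 none was called in either list, and the medians were -1.12 and -0.81. The median against parental cells was -1.79 with guide 1, 0.15 with guide 2 and 0.81 with the empty vector for junction genes.

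Squamous differentiation genes had the lowest median of the lists, -1.83 over 13 tested members, and none was called. In SPRR1B, a cornified envelope protein, the parental libraries were at 3.91, 0.705 and 11.02 CPM and those with both guides at 0.520, 0.196 and 0.250 CPM (adjusted p = 0.58). SPRR3 was at 0.228, 0.0783 and 2.86 CPM against 0, 0.0178 and 0.0179 CPM (adjusted p = 0.473). Parental replicate 3 was highest in both. The 10 mesenchymal genes had a median of -0.07 and none was called, with vimentin (VIM) at 1466, 2289 and 1998 CPM against 1803, 1749 and 1834 CPM. The 7 tested luminal markers had a median of 0.14 and none was called. Of 5 tested fibroblast genes COL1A2 fell, and decorin (DCN) was at 98.0, 126 and 91.9 CPM against 245, 251 and 227 CPM (1.20 ± 0.523, adjusted p = 0.462, and 0.0363 without guide 2 replicate 2). TEK was the nearest to a call of the 3 tested endothelial genes (adjusted p = 0.0633), and CD14 was at 3.79, 3.54 and 3.29 CPM against 6.57, 6.19 and 6.36 CPM (0.86 ± 0.222, adjusted p = 0.149). Both were called without guide 2 replicate 2 (adjusted p = 0.0241 for TEK and 0.0494 for CD14).

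**Figure D5:**
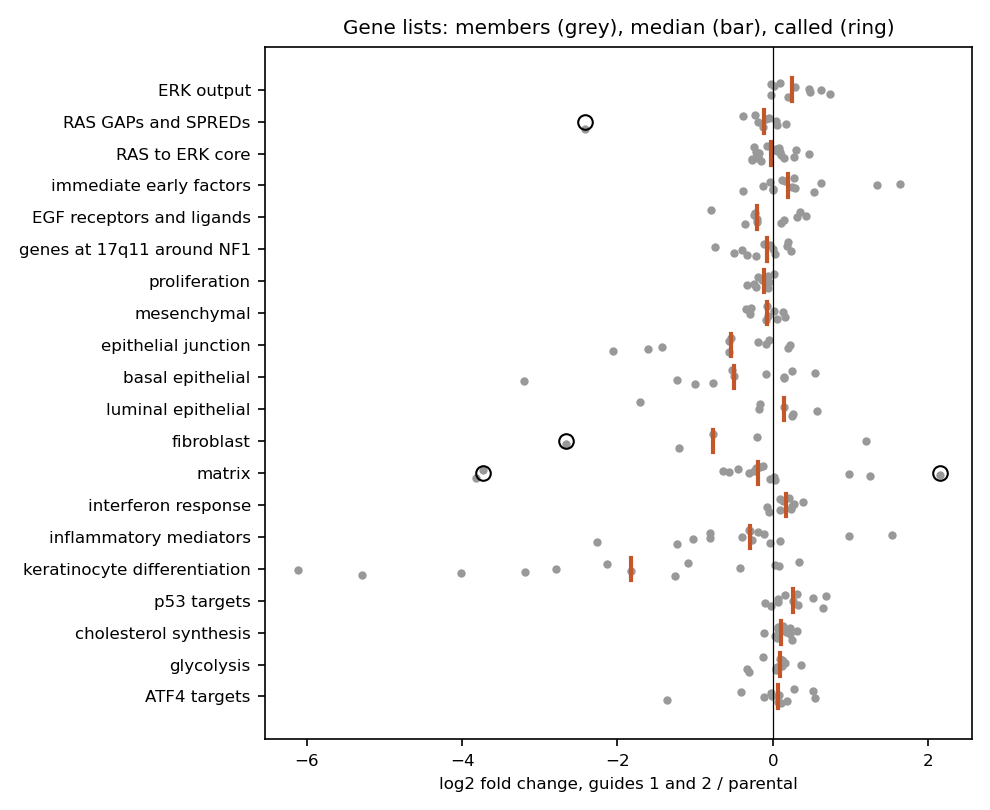
Log2 fold changes (horizontal axis) between cells with both guides and parental cells for the tested members of each gene list with more than 3 tested members (grey points), with the list's median (bar) and called genes (rings). The rings mark NF1, COL1A2, COL6A2 and POSTN; the keratinocyte differentiation list has the lowest median and the widest spread.

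No proliferation gene passed the test. Groups did not overlap in 5 of the 10 genes, all 5 lower with both guides, against 23.1% of all tested genes. Log2 fold changes ran from -0.34 to 0.008. Of the 10 genes 9 were lower, and the median was -0.11. Against the same parental libraries this median was -0.55 with guide 1, -0.09 with guide 2 and -0.73 with the empty vector. MKI67, the Ki-67 antigen, was at 772, 770 and 762 CPM against 774, 728 and 695 CPM (-0.06 ± 0.200, adjusted p = 0.946).

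The stress, metabolic and immune response lists held no called gene. Of 11 p53 targets 9 were higher, with a median of 0.26. SESN2, a stress-induced sestrin, was at 10.6, 9.87 and 10.7 CPM against 16.5, 14.1 and 13.9 CPM (0.52 ± 0.113, adjusted p = 0.0894), and CDKN1A, or p21, at 109, 130 and 113 CPM against 176, 182 and 186 CPM (0.64 ± 0.275, adjusted p = 0.454). Of 12 cholesterol synthesis genes 11 were higher, with a median of 0.10. The 14 glycolysis genes had a median of 0.10 (11 higher), the 12 ATF4 targets 0.07 and the 10 interferon response genes 0.17. The 15 tested inflammatory mediators had a median of -0.30. CSF3, or G-CSF, was at 25.9, 9.59 and 12.4 CPM against 43.6, 44.1 and 49.8 CPM (1.53 ± 0.399, adjusted p = 0.15), and CCL20, a chemokine, at 10.9, 13.7 and 13.1 CPM against 23.6, 25.1 and 25.1 CPM (0.98 ± 0.354, adjusted p = 0.35). CXCL1 went the other way, at 184, 56.7 and 64.8 CPM against 48.3, 51.7 and 49.0 CPM (-1.03 ± 0.363, adjusted p = 0.337). Without guide 2 replicate 2, CSF3 (adjusted p = 0.0235) and CCL20 (adjusted p = 0.00152) were called, and so were the p53 targets SESN2 (0.52, adjusted p = 0.0235), which is also in the ATF4 list, and TP53I3 (0.69, adjusted p = 0.039).

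Other tools gave more calls in some of the lists without a call by edgeR. At an unadjusted p under 0.05, which 9.98% of all tested genes had, edgeR had 4 of 11 p53 targets, 3 of 20 genes from RAS to ERK, 3 of 15 inflammatory mediators and 3 of 10 in the ERK output list. It had 2 each of the EGF (11 tested), basal (11), luminal (7), squamous differentiation (13), cholesterol (12) and ATF4 (12) lists. It had 1 each of the immediate early (14), mesenchymal (10), endothelial (3) and immune (1) lists. It had 0 of the proliferation, junction, 17q11, interferon and glycolysis lists. DESeq2, which called 2.1% of all tested genes, called 1 gene each in the ERK output, RAS to ERK, p53, inflammatory, ATF4, endothelial and immune lists and 0 in the others without an edgeR call. In the matrix list DESeq2 called 5 of 16. With limma-voom and quality weights, which called 3725 of all 17457 tested genes, each list had at least 1 call. The squamous differentiation list had 9 of 13, while proliferation had 2 of 10 and interferon response 1 of 10. That fit weighted parental replicates 1, 2 and 3 at 0.254, 0.418 and 3.823, so its parental level rests mostly on replicate 3. Replicate 3 was also the highest parental library in SPRR1B and SPRR3.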

How the data were processed

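Poly(A) RNA was sequenced from 15 libraries, and the 6 from parental cells and from cells with both guides were compared. The authors deposited whole-number read counts per gene and a table of CPM. Deposited CPM equal the deposited counts divided by library totals to within 4.91e-11. Per the labels' protocols, libraries were prepared with a KAPA mRNA HyperPrep kit from RNeasy-purified RNA. Per the submitters' processing notes, Trim Galore 0.6.0, STAR 2.7.8a and GRCh38 were used. The counting program, annotation and use of strand are not given in the sources used here, so overlapping genes, antisense genes and close copies are uncertain. Gene names came from a name table (60357 of 60721 identifiers) and positions from GENCODE 29.

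Counts were tested with edgeR 4.0.16 in R 4.3.3. Low counts were removed by filterByExpr over the genotypes (minimum count 10, 17457 genes kept), and libraries were scaled by TMM and fitted with a quasi-likelihood group-means model over all 15 libraries (10 residual degrees of freedom). Tests were two-sided, p-values were adjusted over all tested genes by the Benjamini-Hochberg method, and genes were called at an adjusted p under 0.05. The standard error of a log2 fold change is its size over the root of the F statistic. Floors and intervals cover counting error only. On simulated counts for 17190 genes with 200 changed 2-fold between the same groups, 46% of those 200 were called and 3.2% of the 95 calls were false. In the same simulated fit, guide 1 against parental cells, where none was changed, gave 0 calls. Genes named are NF1, all called genes, the 6 next by adjusted p, and the called members of each list. Members with the lowest unadjusted p were named in some lists and left out in others, so a named member need not be the strongest. Defining markers were named too, and the remaining members of the ERK output list, DUSP6, CCND1, SPRY2, ETV4, ETV5 and EPHA4, with FOS, EGFR, VIM, MKI67, COL6A1 and COL6A3, were added after their values were seen. Some genes are not reported here. The members and the gene lists were chosen with earlier results of these data known. Promoter windows are RefSeq sequences on GRCh38.p14. Figures were drawn with matplotlib 3.10.9. Alternatives were RLE scaling, no filter, DESeq2 1.42.0, a replicate block, the 6 libraries alone, limma 3.58.1 with quality weights, an added limit on fold size, and leaving out single libraries. List counts without guide 2 replicate 2 or parental replicate 2 were added after the data were seen.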

Additional observations from a re-analysis of the deposited data

Results flagged for a closer look

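Of the 34 genes called between both guides and parental cells, several also differed between cells with both guides and cells with 1 guide, which is the test of the difference between the lines' changes (edgeR quasi-likelihood test, adjusted over all tested genes, n = 3 each). Against guide 1 alone, log2 fold changes were 6.59 for C9orf64 (adjusted p = 7.67e-07), 4.85 for MGAT4C (0.0197), 1.81 for COL6A2 (0.0145), 1.22 for CHRNA9 (0.0409), 0.52 for S100A16 (0.0367) and 0.49 for CDCA4 (0.0169). Lower than with guide 1 were PDE3A at -2.35 (adjusted p = 0.0423), ZNF737 at -1.83 (0.0248), GGT4P at -1.41 (0.0409) and NF1 at -0.77 (0.0041). Of these 10 genes, PDE3A and C9orf64 were nearer on the log2 scale to their parental level with both guides than with guide 1. C9orf64 lay above that level with both guides (1.51) and below it with guide 1 (-5.08).

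Against guide 2 alone, the log2 fold changes were 6.37 for MGAT4C (adjusted p = 0.0249), 4.85 for C9orf64 (1.05e-05), 2.14 for PRKAR2B (0.0364), 1.47 for COL6A2 (0.0493), 1.37 for CHRNA9 (0.0289), 1.08 for RHOF (0.0364) and 0.99 for IGSF9B (0.0285). Those lower than with guide 2 were ZNF737 at -1.85 (adjusted p = 0.0285), ARL10 at -1.73 (0.0249), DENND2D at -1.44 (0.0258) and PARVB at -1.09 (0.0249). Both contrasts share the libraries with both guides. With replicate block terms in the fit, most of these calls against guide 2 were lost. MGAT4C had few or no counts outside these libraries, so its values depend on the prior count.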

How the results depend on the processing

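NF1 was called in all 13 alternatives (log2 fold change -2.46 to -2.36), and the 34 called genes kept their direction in each alternative that tested them. The count of 34 was 35 with RLE scaling, 28 with an added limit of 1 on the absolute log2 fold change, 60 without the low-count filter, 147 in a fit of the 6 libraries alone, 467 without guide 2 replicate 2, 367 with DESeq2 and 3725 with limma-voom quality weights. Leaving out 1 of the 6 libraries gave 4 to 41 genes. Both guides against guide 1 (48 genes) gave 82 without the filter and 813 without guide 2 replicate 2, against guide 2 (26) 51 and 327, and against the empty vector (168) 1196 without that library. The causes of these shifts were not tested.

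Replicate numbers did not pair the libraries, since same-numbered libraries had correlations of deviations from -0.063 to 0.032. A fit with replicate block terms gave counts of 22 against parental cells, 20 against guide 1, 2 against guide 2 and 69 against the empty vector, and NF1 stayed at -2.41. With 3 libraries a group, the simulated test called 46% of genes changed 2-fold, so changes of that size can be missed. Genes under about 1 CPM rest on few counts.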
